A study of Mus musculus with 5 samples.

Results

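The genes described here encode AMP-activated protein kinase (AMPK) and its upstream kinases: the catalytic subunits Prkaa1 and Prkaa2, the scaffold subunits Prkab1 and Prkab2, the nucleotide-binding subunits Prkag1, Prkag2 and Prkag3, and the kinases Stk11 (LKB1) and Camkk2. They were chosen by gene symbol, and all 9 were found among the 24531 genes of the deposited table, as 16 of its 36779 transcripts. RNA was measured in primary adipocytes from epididymal fat of C57BL/6N mice fed a high-fat diet for 12 weeks. One group is titled Prmt1 f/f, with genotype WT (3 libraries), and the other Prmt1 FKO, an adipocyte-specific knockout (2 libraries) of Prmt1, a protein arginine methyltransferase. Both groups were on the high-fat diet, so no lean group bears on these values. No source used here gives the Cre line, the deleted exons, or the age and number of the animals. Sex is not stated beyond the epididymal depot, which is one of males. Whether each library is a different animal is not stated, and the p-values therefore measure the spread between these libraries alone, which may be technical.

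AMPK is a complex of 1 alpha, 1 beta and 1 gamma subunit that is switched on when AMP and ADP rise relative to ATP. The gamma subunit binds the nucleotides, and an upstream kinase, mainly LKB1 or, after a rise in calcium, CAMKK2, phosphorylates the activation loop of alpha. In adipocytes the active kinase phosphorylates enzymes of fatty acid synthesis and lipolysis. Each subunit is encoded by paralogous genes, so complexes of different composition can form; RNA levels show neither the protein amounts nor the activity of the kinase.

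The libraries held 43580154 to 57016997 estimated counts, and 3 counts, the limit that a count of 0 allows, corresponded to 0.0526 to 0.0688 CPM of the library totals. CPM below is scaled further by TMM factors. This floor covers counting error only. Prmt1 itself was at 29.4 to 34.1 CPM in f/f and at 19.3 to 21.0 CPM in FKO (log2 fold change -0.66, edgeR adjusted p = 0.0171). That call ended without FKO replicate 1 (edgeR adjusted p = 0.115) or FKO replicate 2 (0.161). Over all genes tested, edgeR called 11.9% as higher and 13.4% as lower in FKO. Summed CPM of 10 adipocyte markers was 35032 to 43377 in f/f and 49846 to 55110 in FKO, and 2 of the 10 rose. Several marker lists of other cells were lower in FKO: 7 of 8 macrophage markers fell (summed CPM 770.04 to 1419 in f/f, 341 to 464 in FKO), as did 7 of 7 mesothelial markers (48.8 to 96.6 against 14.2 to 22.5), 4 of 8 progenitor and fibroblast markers (636 to 896 against 336 to 359) and 3 of 5 smooth muscle markers (106.7 to 248.7 against 58.7 to 66.2). Of 6 endothelial markers (345 to 476 against 381 to 419) and 3 tested T and B cell markers (sum of the 5 listed, 0.29 to 1.59 against 0.50 to 1.27), 0 were called by edgeR or DESeq2 and 0 had an unadjusted p under 0.05. Of 5 epididymal markers 1, Crisp1, named after its value was seen, was tested and fell. All 5 had 0 counts in FKO, and their sum was 6.41, 0.36 and 0.98 CPM in f/f replicates 1 to 3. These falls are edgeR calls. For macrophage, mesothelial, progenitor and fibroblast, smooth muscle and epididymal markers, limma-voom called 7, 5, 3, 1 and 0 as lower. DESeq2 called 7, 7, 5, 3 and 1. The part of these cells in the results below was not tested, and in such bulk samples fewer cells of a type and less RNA per cell cannot be told apart.

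The sequences upstream of 2 genes, Prkaa1 and Prkaa2, are shown because both catalytic genes rose. Those of the 3 annotated starts of Prkag2 are shown because the transcript from start 1 separated the 2 groups in FPKM, which lacks the TMM scaling. The transcripts from the other starts did not separate them in FPKM. Each run is the 250 bases before a RefSeq transcript start (GRCm38.p6), on the strand of the gene, with motif matches on either strand in capitals. The motifs were the GC box GGGCGG, the promoter element CCAAT, the TATA box with letters TATAAA, the E box with letters CACGTG, and the nuclear receptor core motif, which reads AGGTCA. The windows are chr15:5143611-5143860 on the plus strand for Prkaa1 and, on the minus strand, chr4:105109899-105110148 for Prkaa2 and chr5:25100643-25100892, chr5:24995754-24996003 and chr5:24908510-24908759 for Prkag2. None of the 5 windows overlapped a GENCODE exon on either strand.
Prkaa1: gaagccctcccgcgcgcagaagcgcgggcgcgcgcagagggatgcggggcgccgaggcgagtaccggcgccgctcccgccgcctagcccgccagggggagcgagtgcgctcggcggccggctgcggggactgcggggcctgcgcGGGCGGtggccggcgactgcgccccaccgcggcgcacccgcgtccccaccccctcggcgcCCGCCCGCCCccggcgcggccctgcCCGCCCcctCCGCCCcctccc
Prkaa2: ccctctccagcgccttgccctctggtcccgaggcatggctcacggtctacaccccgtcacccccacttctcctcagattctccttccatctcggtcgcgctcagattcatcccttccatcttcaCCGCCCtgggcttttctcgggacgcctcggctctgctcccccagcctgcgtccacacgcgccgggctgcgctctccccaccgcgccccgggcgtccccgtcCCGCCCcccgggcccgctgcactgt
Prkag2 start 1: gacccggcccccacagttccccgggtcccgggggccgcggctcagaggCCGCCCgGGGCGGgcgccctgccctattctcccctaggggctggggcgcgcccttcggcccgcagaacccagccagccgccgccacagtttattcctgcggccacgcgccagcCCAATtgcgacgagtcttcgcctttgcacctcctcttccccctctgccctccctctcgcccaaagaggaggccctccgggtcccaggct
Prkag2 start 2: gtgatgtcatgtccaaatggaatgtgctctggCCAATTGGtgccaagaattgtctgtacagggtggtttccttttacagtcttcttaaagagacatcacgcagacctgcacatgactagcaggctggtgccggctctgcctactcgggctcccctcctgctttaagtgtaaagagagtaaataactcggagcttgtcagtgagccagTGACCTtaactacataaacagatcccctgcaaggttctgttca
Prkag2 start 3: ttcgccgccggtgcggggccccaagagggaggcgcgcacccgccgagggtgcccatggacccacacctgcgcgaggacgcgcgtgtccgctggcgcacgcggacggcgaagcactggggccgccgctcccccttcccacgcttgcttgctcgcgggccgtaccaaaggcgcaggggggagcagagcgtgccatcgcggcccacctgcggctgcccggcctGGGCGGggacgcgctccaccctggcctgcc
The windows of Prkaa1 and Prkaa2 held 45 and 24 CpG dinucleotides and 5 and 2 GC box matches, and no match to the other 4 motifs. Over 32536 distinct mouse promoter windows of the same length the median was 6 CpG, and 33.0% held a GC box. In windows not shown, CpG and GC box matches were 18 and 5 for Prkab2, 24 and 0 for Prkab1, and 12 and 1 for Prkag1. They were 9 and 0 for Prkag3, 24 and 0 for Stk11, and 32 and 1 for Camkk2. Whether these counts go with the direction of change was not tested. Prkag2 start 1, from which variant 1 is transcribed, had 23 CpG, 2 GC boxes and 1 CCAAT. Prkag2 start 2, of variant 4, had 4 CpG, 2 matches to CCAAT that overlap on opposite strands, and 1 match to AGGTCA, found as TGACCT. Prkag2 start 3, of variants 2 and 3, had 34 CpG and 1 GC box. CCAAT was found in 33.8%, TATAAA in 12.3%, CACGTG in 6.04% and AGGTCA in 14.0% of all windows. A match is a run of letters and not evidence of binding.

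Transcripts of the AMPK catalytic subunits were higher in FKO adipocytes, those of 1 beta and 2 gamma genes were lower, and the upstream kinases did not pass the test. Of the 9 genes, all of which passed the filter on low counts, Prkaa1 and Prkaa2 rose and Prkab2, Prkag2 and Prkag3 fell (edgeR quasi-likelihood test, Benjamini-Hochberg adjusted p under 0.05 over 14492 genes). Over all genes tested, 25.4% were called, 11.9% as higher and 13.4% as lower in FKO. In TMM-scaled CPM the f/f and FKO libraries did not overlap in any of the 9 genes, 4 higher and 5 lower in FKO; over all genes tested they did not overlap in 59.0%, with 28.6% higher and 30.5% lower. In FPKM, which lacks that scaling, 2 of the 4 higher genes overlapped: Stk11 was at 33.7 to 46.8 FPKM in f/f and at 37.9 and 41.0 FPKM in FKO, and Prkag1 at 29.0 to 34.2 and at 31.0 and 33.7 FPKM. Their log2 fold changes were 0.05 and 0.03 in the fit on log2(FPKM + 1). The median log2 fold change was -0.20 over the 9 genes and -0.05 over all genes.

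**Figure D1:**
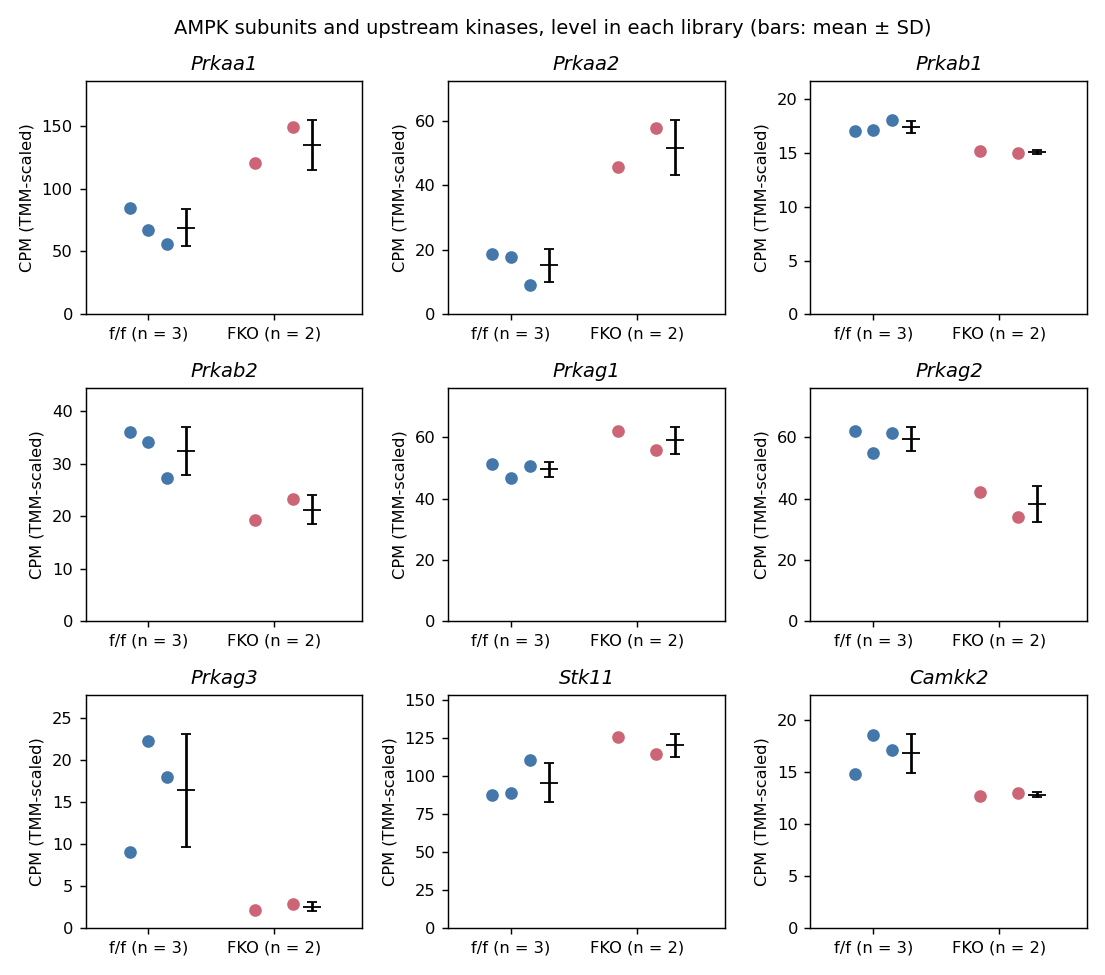
CPM scaled by TMM (vertical axes, each from 0) in each f/f and FKO library for the 9 genes; points are libraries and black bars the mean ± SD (n = 3 and n = 2). Prkaa1 and Prkaa2 lie higher in both FKO libraries than in any f/f library, and Prkag3 lies at 2.11 and 2.88 CPM in FKO against 9.05 to 22.2 CPM in f/f.

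The order of the levels was read per transcript length, as FPKM summed over the transcripts of a gene. In f/f, Stk11 (38.3 ± 7.31 FPKM) and Prkag1 (31.7 ± 2.57) were at the top, followed by Prkag2 (19.6 ± 2.099), Prkaa1 (15.4 ± 2.72), Prkab1 (8.90 ± 0.72), Prkab2 (7.96 ± 0.79), Prkag3 (6.07 ± 2.50), Camkk2 (3.62 ± 0.45) and Prkaa2 (1.92 ± 0.59; SD, n = 3 throughout). Across the f/f libraries the ranges of Stk11 and Prkag1 overlapped, as did those of Prkag2 and Prkaa1. So did the ranges of Prkab1 and Prkab2, of Prkab2 and Prkag3, and of Prkag3 and Camkk2. Within each f/f library these pairs kept that order, except Prkab1 and Prkab2 in f/f replicate 1 (8.45 and 8.63 FPKM). In FKO the order was Stk11 (39.4 ± 2.24 FPKM), Prkag1 (32.3 ± 1.87), Prkaa1 (26.0 ± 4.31), Prkag2 (11.6 ± 1.53), Prkab1 (6.62 ± 0.041), Prkaa2 (5.67 ± 1.04), Prkab2 (4.49 ± 0.65), Camkk2 (2.37 ± 0.075) and Prkag3 (0.79 ± 0.19; SD, n = 2 throughout). Prkaa2 thus went from the lowest place in f/f to above Prkab2 in FKO. Within the libraries, Prkaa2 and Prkab2 were at 4.94 and 4.03 FPKM in FKO replicate 1 and at 6.41 and 4.96 in FKO replicate 2. Prkag3 went from above Camkk2 to the lowest place.

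Prkaa1 encodes the alpha1 catalytic subunit, the main alpha form of fat cells in rodents, and lies on chromosome 15 (gene 105787, mm10, 5143861 to 5181899, plus strand). It was at 84.4, 66.9 and 55.7 CPM in f/f replicates 1 to 3 and at 120 and 149 CPM in FKO replicates 1 and 2. Both FKO libraries were above every f/f library, and the f/f values spread more widely than those of the gamma1 or beta1 genes. It rose 1.95-fold (log2 fold change 0.96, SE 0.20, edgeR adjusted p = 0.0165). Prkaa2 encodes the alpha2 subunit, the major form of skeletal muscle and heart (gene 108079, chromosome 4, 105029650 to 105109898, minus strand). It was at 18.6, 17.8 and 9.20 CPM in f/f and at 45.6 and 57.8 CPM in FKO. The lowest FKO library was above the highest f/f library, and f/f replicate 3 was the lowest of the 5 for both alpha genes. Prkaa2 rose 3.41-fold (log2 fold change 1.77, SE 0.30, edgeR adjusted p = 0.00824). The Prkaa1 call ended without FKO replicate 1 (edgeR adjusted p = 0.061) or FKO replicate 2 (0.122), and the Prkaa2 call without FKO replicate 2 (0.0509). Each of these fits rests on a single FKO library.

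Prkab1 encodes the beta1 subunit, which links alpha to gamma and binds glycogen (gene 19079, chromosome 5, 116013590 to 116024428, minus strand). It was at 17.0, 17.1 and 18.1 CPM in f/f and at 15.2 and 14.99 CPM in FKO. The groups did not overlap, but the difference did not pass the test (log2 fold change -0.20, SE 0.14, edgeR adjusted p = 0.299). Prkab2 encodes the beta2 subunit, the form most abundant in skeletal muscle (gene 108097, chromosome 3, 97658212 to 97673067, plus strand). It was at 36.1, 34.1 and 27.4 CPM in f/f and at 19.4 and 23.2 CPM in FKO. All FKO libraries were below all f/f libraries, and Prkab2 fell 1.53-fold (log2 fold change -0.61, SE 0.18, edgeR adjusted p = 0.0434). This call ended in 4 of 15 alternatives, without f/f replicate 1 (edgeR adjusted p = 0.0901) or 2 (0.0881) and without FKO replicate 1 (0.294) or 2 (0.131).

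Prkag1 encodes gamma1, the gamma form found in nearly all tissues (gene 19082, chromosome 15, 98812797 to 98831508, minus strand). It was at 51.3, 46.7 and 50.7 CPM in f/f and at 62.1 and 55.9 CPM in FKO, higher in both FKO libraries, and did not pass the test (log2 fold change 0.25, SE 0.14, edgeR adjusted p = 0.208). GENCODE places 950 exon bases of the antisense gene B130046B21Rik over exons of Prkag1; the labels do not state that counting used strand, so reads of the pair cannot be told apart. Prkag2 encodes gamma2, whose human mutations cause a glycogen storage disease of the heart (gene 108099, chromosome 5, 24862735 to 25100642, minus strand). Summed over its 4 transcripts it was at 62.2, 54.9 and 61.4 CPM in f/f and at 42.3 and 34.0 CPM in FKO. The 3 f/f libraries lay close together and above both FKO libraries, and Prkag2 fell 1.56-fold (log2 fold change -0.64, SE 0.16, edgeR adjusted p = 0.0263). The call ended without f/f replicate 1 (edgeR adjusted p = 0.0528), FKO replicate 1 (0.088) or FKO replicate 2 (0.238). The antisense genes Prkag2os1 and Prkag2os2 share 142 and 795 exon bases with Prkag2 in GENCODE; Prkag2os1 had 4 to 13 counts a library.

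Prkag3 encodes gamma3, known as the gamma form of glycolytic skeletal muscle (gene 241113, chromosome 1, 74738922 to 74748955, minus strand). It had 408, 1307 and 1146 counts in f/f replicates 1 to 3 and 95 and 121 counts in FKO, which is 9.05, 22.2 and 17.9 CPM in f/f and 2.11 and 2.88 CPM in FKO. The groups did not overlap, and f/f replicate 1 was the lowest of the 3 f/f libraries. Prkag3 fell 6.58-fold, with the largest size of change among the 9 genes (log2 fold change -2.72, SE 0.41, edgeR adjusted p = 0.00583), and it was the one member whose call held under all 15 alternatives (adjusted p up to 0.0473). Of the 8 skeletal muscle markers examined, Myh2, Myh4 and Myog had 0 counts in all 5 libraries, Ckm and Myh1 did not exceed 0.03 CPM, Tnnt3 and Mylpf did not exceed 0.44 CPM, and Acta1 was at 62.6 to 140 CPM in f/f and 110.4 to 133 CPM in FKO with no call (edgeR adjusted p = 0.523). Several marker lists of other cells were lower alongside Prkag3, Prkag2 and Prkab2. Their medians on the log2 scale were -2.14 for mesothelium, -1.89 for smooth muscle, -1.50 for macrophages and -1.17 for progenitors and fibroblasts. Those of endothelium and of T and B cells were -0.21 and -0.19, with 0 called. The 1 tested epididymal marker also fell by edgeR, and limma-voom did not call it. The part of these cells in the falls was not tested.

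**Figure D2:**
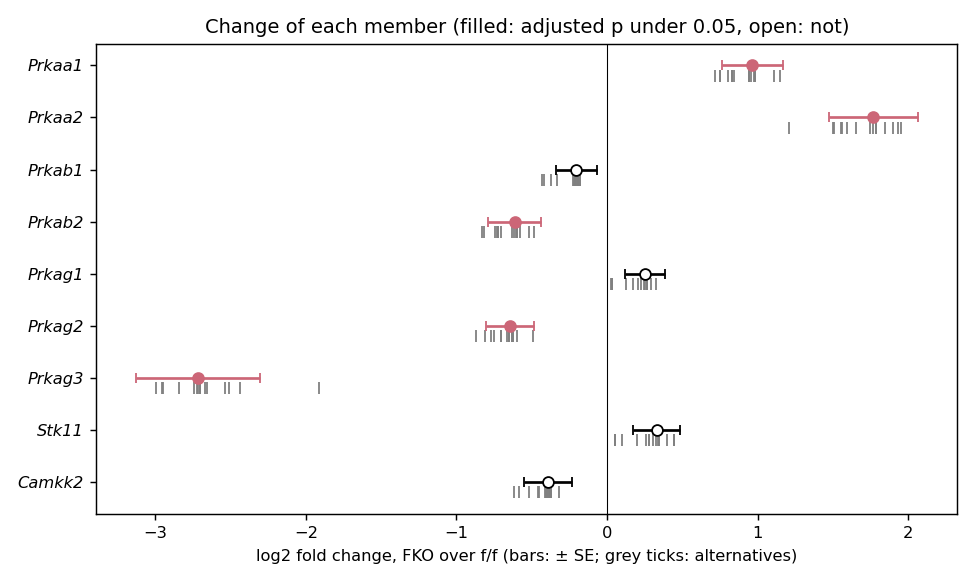
Log2 fold change of FKO over f/f (horizontal axis) for the 9 genes; points are edgeR estimates with bars of ± 1 SE, filled where the adjusted p was under 0.05, and grey ticks are the same value under the 15 alternatives. Each gene keeps 1 sign under all of them, from 0.72 to 1.15 for Prkaa1 and from -2.99 to -1.92 for Prkag3.

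Stk11 encodes LKB1, the main activator of AMPK (gene 20869, chromosome 10, 80115803 to 80130685, plus strand). It was at 87.0, 88.9 and 110.4 CPM in f/f and at 125 and 114 CPM in FKO. The groups did not overlap, but f/f replicate 3 lay near FKO replicate 2, and the difference did not pass the test (log2 fold change 0.33, SE 0.16, edgeR adjusted p = 0.168), although it passed without f/f replicate 3 (0.048). Its 3' end shares 232 exon bases with Cbarp of the opposite strand in GENCODE, which had 125 to 262 counts in f/f and 12 to 38 in FKO. Camkk2 encodes the calcium-activated kinase of AMPK (gene 207565, chromosome 5, 122731170 to 122779410, minus strand). It was at 14.8, 18.5 and 17.1 CPM in f/f and at 12.6 and 12.9 CPM in FKO, all FKO values below all f/f values, with no call (log2 fold change -0.39, SE 0.16, edgeR adjusted p = 0.110). It passed with library size alone as the scaling (log2 fold change -0.62, edgeR adjusted p = 0.0344), a scaling that moved the median of all genes from -0.05 to -0.27.

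The paralogs of each subunit were then compared within libraries, as a ratio that does not depend on the scaling between libraries. Prkaa2 made up 11.1%, 13.1% and 8.56% of the alpha FPKM in f/f and 17.7% and 18.1% in FKO. The FKO shares were higher than every f/f share and close to each other. The ratio of Prkaa2 to Prkaa1 was 1.80-fold higher in FKO, with a difference of mean log2 ratios of 0.85 (-3.05 ± 0.34 in f/f, SD, n = 3, and -2.20 ± 0.026 in FKO, SD, n = 2; 2-sided exact permutation test, p = 0.1, adjusted p = 0.133 over the 4 ratios compared). With 3 libraries against 2 there are 10 arrangements, and 0.1 is the smallest p they allow. Prkab2 made up 50.5%, 48.9% and 42.2% of the beta FPKM in f/f and 37.9% and 42.7% in FKO. These shares overlapped, since f/f replicate 3 was below FKO replicate 2, and the ratio of Prkab2 to Prkab1 differed by -0.40 on the log2 scale (exact permutation test, p = 0.3, adjusted p = 0.3).

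Among the gamma genes, Prkag1 made up 58.1%, 53.4% and 54.5% of the FPKM in f/f and 71.6% and 73.0% in FKO. Prkag2 made up 36.0%, 32.0% and 34.4% in f/f, against 27.0% and 24.8% in FKO, and Prkag3 made up 5.92%, 14.7% and 11.1% in f/f, against 1.39% and 2.17% in FKO. Both groups stood apart for each of the 3 genes: gamma1 took a larger share of the gamma transcripts in FKO, and gamma2 and gamma3 smaller ones. The log2 ratio of Prkag2 to Prkag1 was -0.70 ± 0.039 in f/f (SD, n = 3) and -1.48 ± 0.11 in FKO (SD, n = 2), and that of Prkag3 to Prkag1 was -2.48 ± 0.74 and -5.38 ± 0.43. The differences were -0.79 and -2.89 (exact permutation test, p = 0.1 for each, the smallest possible, adjusted p = 0.133).

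The summed alpha FPKM was 20.8, 16.9 and 14.5 in f/f, against 27.9 and 35.5 in FKO, while the summed beta FPKM was 17.1, 16.7 and 16.8 in f/f, against 10.6 and 11.6 in FKO. The summed gamma FPKM was 54.9, 54.4 and 62.7 in f/f, against 47.0 and 42.5 in FKO. In FPKM, the alpha sum was higher and the beta and gamma sums lower in both FKO libraries than in any f/f library. FPKM lacks the TMM scaling, whose factors were 1.04 to 1.12 in f/f and 0.90 and 0.92 in FKO. Over all genes the median log2 fold change was -0.24 for FPKM plus 0.1, against -0.05 with TMM. The lower beta and gamma sums include this general shift. The ratio of alpha to beta transcripts was 1.22, 1.01 and 0.86 in f/f, against 2.63 and 3.06 in FKO. These sums were formed after the values of the single genes were seen and are given without a test.

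**Figure D3:**
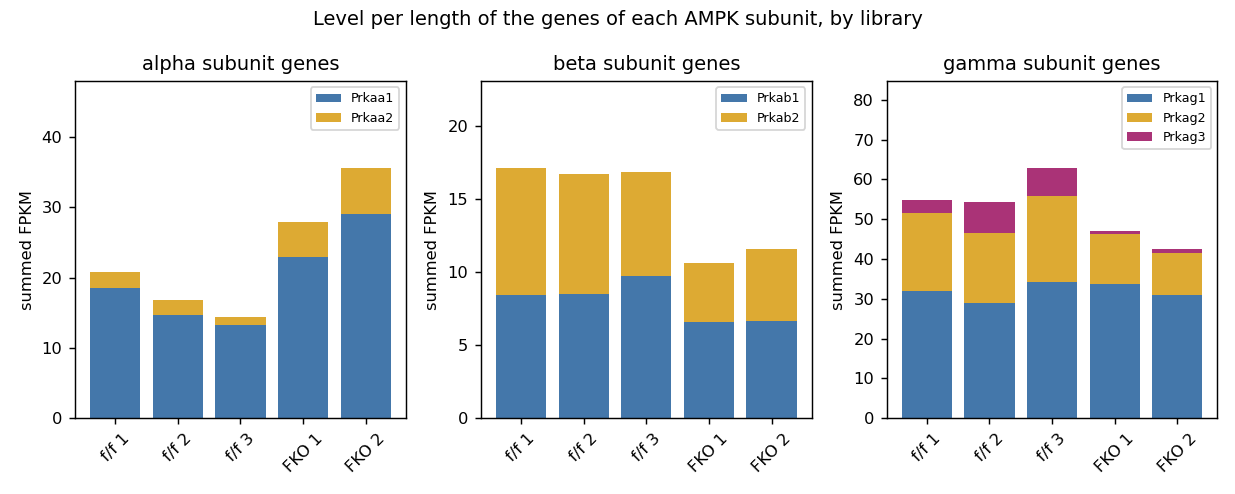
Summed FPKM (vertical axes, from 0) of the alpha, beta and gamma genes in each of the 5 libraries, stacked by gene. FPKM lacks the TMM scaling. The alpha stack is taller in FKO (27.9 and 35.5) than in f/f (14.5 to 20.8), the beta stack is shorter, and the Prkag3 segment of the gamma stack shrinks to 0.66 and 0.92 FPKM in FKO.

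Of the 9 genes, 3 have more than 1 transcript in the table, and the other 6 have 1. Prkag2 has a long variant 1 (3340 bases) from start 1, variant 4 (2851 bases) from start 2, 104889 bases downstream, and the short variants 2 and 3 (2261 and 2258 bases) from start 3, 192133 bases downstream of start 1. The short form is known to lack the long amino-terminal extension of gamma2 and to keep the nucleotide-binding region. Variant 1 was at 16.8, 15.4 and 17.3 FPKM in f/f and at 7.63 and 6.15 FPKM in FKO, lower in both FKO libraries. Variants 2 and 3 together were at 1.93, 1.96 and 3.77 FPKM in f/f and at 4.08 and 3.71 FPKM in FKO. In FPKM, f/f replicate 3 thus overlapped with FKO replicate 2. FPKM lacks the TMM scaling, and the factors of these 2 libraries, 1.12 and 0.92, lie further apart than the 2 values. This overlap therefore depends on the scaling. Variant 1, annotated from start 1, thus held 85.1%, 88.2% and 80.1% of the estimated Prkag2 FPKM in f/f and 60.1% and 58.4% in FKO, with no overlap. Use of the starts themselves was not measured. The test of transcript use, which asks whether transcripts of a gene change unequally, did not call Prkag2 (edgeR diffSpliceDGE, adjusted p = 0.160 over 3997 genes). That test called 5.68% of those genes. No transcript of Prkag2 passed the transcript-level test (edgeR diffSpliceDGE, unadjusted p = 0.448 for variant 1). The split between variants 2 and 3, which share their start and are nearly equal in length, varied within each group: they had 202 and 266 counts in FKO replicate 1 and 61 and 328 in FKO replicate 2.

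Transcript use of Stk11 was called (edgeR diffSpliceDGE, adjusted p = 0.0305). Variant 1, which made up most of the gene, was at 31.0, 32.1 and 43.1 FPKM in f/f and at 34.6 and 30.9 FPKM in FKO, with overlapping groups. Variant 4, a transcript that RefSeq lists as non-coding (3879 bases), was at 1.67, 1.56 and 1.66 FPKM in f/f and at 4.81 and 5.48 FPKM in FKO. It held 5.27% to 7.32% of the Stk11 counts in f/f and 16.8% and 20.4% in FKO, without overlap, although no single transcript of Stk11 passed the transcript-level test (adjusted p = 0.855 for variant 4; 0.437% of 10759 transcripts passed). Variant 3 was at 0.82 to 1.99 FPKM and variant 2 had 2 to 25 counts a library. The gene-level call ended without f/f replicate 2 (adjusted p = 0.099) or 3 (0.0675), without FKO replicate 1 (0.112) or 2 (0.313), and with the replicate number as a block (0.331). Camkk2 was not called for transcript use (adjusted p = 0.940); its variant 1 had 1, 220 and 526 counts in f/f and 0 and 135 in FKO, so the split between its variants, which differ little in length (4889 and 4846 bases), varied widely within each group, and the groups overlapped.

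**Figure D4:**
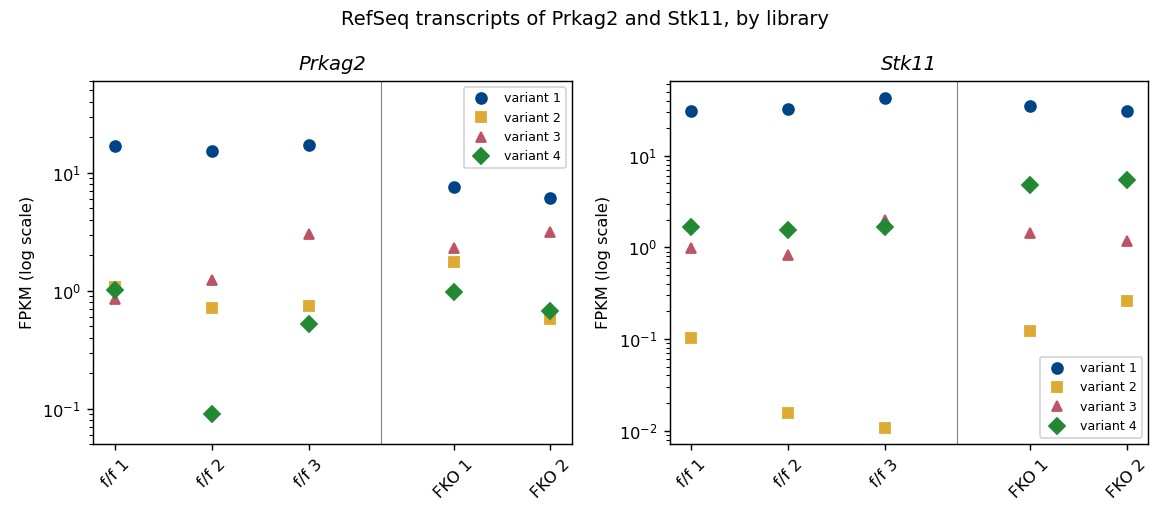
FPKM on a log axis of the 4 RefSeq transcripts of Prkag2 and of Stk11 in each of the 5 libraries. Variant 1 of Prkag2 is at 15.4 to 17.3 FPKM in f/f and at 6.15 and 7.63 FPKM in FKO, and variant 4 of Stk11 is at 1.56 to 1.67 FPKM in f/f and at 4.81 and 5.48 FPKM in FKO.

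The other genes of the pathway were read from 8 lists, which were chosen with earlier results of these data known. Shares called within a list are therefore descriptions, and no list was tested as a whole. Of the 6 partners of LKB1 and other AMPK kinases, 0 were called by edgeR, with a median log2 fold change of 0.055 against -0.05 over all genes; 1 had an unadjusted p under 0.05 and 1 was called by DESeq2. The pseudokinase Stradb, which activates LKB1, stood at 40.6 ± 4.23 CPM in f/f (n = 3, SD) and at 59.4 ± 13.8 CPM in FKO (n = 2, SD; edgeR adjusted p = 0.0672), and passed by DESeq2 (0.0315). Cab39l, an LKB1 scaffold, had a log2 fold change of -0.29, Strada 0.26 and the kinase Map3k7 0.18; Cab39l passed with library size alone (adjusted p = 0.0334) and in both FPKM fits, by limma on log2 of FPKM plus 0.1 or 1 (0.0264 and 0.0289), and Map3k7 changed sign in these 3. Of the 9 phosphatases that act on AMPK and genes of the folliculin complex, 0 were called by edgeR (median -0.05), 3 had an unadjusted p under 0.05, and 1 was called by DESeq2. They include Fnip1 at 0.69, Ppm1f at 0.49, Flcn at 0.44 and Fnip2 at -0.40 on the log2 scale (edgeR adjusted p = 0.0719, 0.131, 0.0973 and 0.124). Fnip1 passed by DESeq2 (0.0297) and without f/f replicate 1 (0.0143), and Fnip2 with library size alone (0.0329).

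Of 12 tested AMPK-related kinases, which LKB1 also phosphorylates, 2 rose and 1 fell (median -0.017), and these 3 of 12 are near the share of 25.4% called over all genes. Mark1, a microtubule affinity kinase, had 1.40, 1.90 and 2.62 CPM in f/f and 24.5 and 25.9 CPM in FKO and rose 12.7-fold (edgeR adjusted p = 0.000832), and its paralog Mark2 rose 1.75-fold from 53.5 to 93.6 CPM (edgeR adjusted p = 0.00856). Sik1, a salt-inducible kinase, fell 1.83-fold from 123.3 to 67.3 CPM (edgeR adjusted p = 0.0465), a call lost in 7 of 15 alternatives that include no filter (0.0517), the replicate number as a block (0.0673), limma-voom (0.0530) and the fits without f/f replicate 2 (0.0917) or 3 (0.0656) and without FKO replicate 1 (0.162) or 2 (0.229). Nuak1 had a log2 fold change of -0.65 (edgeR adjusted p = 0.0573), and passed in 6 alternatives, one of them without f/f replicate 1 (0.0349). The Mark2 call ended without FKO replicate 1 (0.0667) or 2 (0.0853), and Mark1 kept its call under all alternatives.

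Of 8 genes that regulate AMPK activity, 1 rose and 3 fell (median 0.16), 50.0% called against 25.4% over all genes. Pld1, a phospholipase, fell 2.42-fold from 10.6 to 4.39 CPM, and the stress-induced sestrins Sesn2 and Sesn1 fell 1.71-fold and 1.49-fold, from 46.4 to 27.2 CPM and from 43.9 to 29.4 CPM (edgeR adjusted p = 0.00721, 0.0164 and 0.0451). Lamtor1, which anchors a lysosomal complex that can recruit AMPK, rose 1.53-fold from 89.8 to 138 CPM (edgeR adjusted p = 0.0263). None of these 4 calls held without FKO replicate 1 (edgeR adjusted p = 0.0609 for Pld1, 0.130 for Sesn2, 0.206 for Sesn1 and 0.168 for Lamtor1) or without FKO replicate 2 (0.0584, 0.112, 0.248 and 0.154), and that of Sesn1 also ended without f/f replicate 1 (0.0849) or 2 (0.0894), with no filter (0.0526) and by limma-voom (0.0510). The Lamtor1 call also ended with the replicate number as a block (0.0531), with library size alone (0.0669) and in both FPKM fits (0.0529 and 0.0528).

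Of 26 genes whose proteins are direct AMPK substrates, 8 rose and 0 fell by edgeR (median 0.30). The 30.8% called were all higher, against 11.9% called higher and 13.4% called lower over all genes. This list was chosen with earlier results of these data known and was not tested as a whole. DESeq2 called 10 as higher and 1 as lower, and 1 with a lower level had an unadjusted edgeR p under 0.05. Gys2, the liver form of glycogen synthase, had 9.42, 19.4 and 8.15 CPM in f/f and 94.3 and 141 CPM in FKO, a rise of 9.54-fold (edgeR adjusted p = 0.00285). Acacb, the acetyl-CoA carboxylase at mitochondria, had 250.1, 175 and 189.5 CPM in f/f and 788 and 905 CPM in FKO, a rise of 4.13-fold (edgeR adjusted p = 0.00157). Srebf1, a transcription factor of lipid synthesis, rose 2.16-fold, and Pnpla2, the triglyceride lipase, 1.91-fold (edgeR adjusted p = 0.00535 and 0.00998). The calls of Gys2, Acacb and Srebf1 held under all 15 alternatives, and that of Pnpla2 ended without FKO replicate 1 (0.0635) or 2 (0.0667).

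Of 11 genes of mTORC1 and its control, which AMPK restrains, 3 rose and 0 fell by edgeR (median 0.46). The 27.3% called were all higher, against 11.9% called higher and 13.4% called lower over all genes, and the list as a whole was not tested. By DESeq2 5 rose and 0 fell, and 0 of the lower ones had an unadjusted edgeR p under 0.05. Those that rose were the kinase Rps6kb1 1.91-fold, Mtor 1.72-fold and the translation repressor Eif4ebp1 1.52-fold (edgeR adjusted p = 0.00485, 0.0474 and 0.0229). Akt1s1 had a log2 fold change of 0.46 (edgeR adjusted p = 0.0717). The 3 calls ended without FKO replicate 1 (0.0512 for Rps6kb1, 0.182 for Mtor and 0.193 for Eif4ebp1) or 2 (0.0520, 0.184 and 0.122), and that of Mtor also without f/f replicate 1 (0.0953) or 3 (0.0541), with upper-quartile factors (0.0577), library size alone (0.0844), no filter (0.0552) and in both FPKM fits (0.0767 and 0.0868), so in 9 of 15 alternatives. The Eif4ebp1 call also ended with the replicate number as a block (0.0546), with library size alone (0.0694) and in both FPKM fits (0.0797 and 0.0782). Of 14 tested enzymes of AMP, ADP and ATP turnover, 3 rose and 2 fell (median 0.22), 35.7% called against 25.4% over all genes. Adsl, an enzyme of AMP synthesis, rose 1.58-fold from 31.5 to 49.7 CPM, Nt5c2, a nucleotidase, rose 1.44-fold from 38.3 to 55.3 CPM, and Aprt, which salvages adenine to AMP, fell 2.01-fold from 11.9 to 5.90 CPM (edgeR adjusted p = 0.0298, 0.0356 and 0.0364). The calls of Adsl, Nt5c2 and Aprt ended in 6, 8 and 6 of 15 alternatives, each with both left-out FKO libraries among them (0.153 and 0.160 for Adsl, 0.121 and 0.281 for Nt5c2, 0.228 and 0.0748 for Aprt). Without f/f replicate 1 the adjusted p was 0.0610 for Nt5c2 and 0.0746 for Aprt, without f/f replicate 2 it was 0.0513 for Adsl and 0.0786 for Nt5c2, and without f/f replicate 3 it was 0.0703 for Aprt. Library size alone and both FPKM fits also ended the calls of Adsl (0.0646, 0.0697 and 0.0771) and Nt5c2 (0.188, 0.180 and 0.189), upper-quartile factors that of Nt5c2 (0.0935), and the replicate block and limma-voom that of Aprt (0.0625 and 0.0515).

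Of 10 genes of NAD supply and mitochondrial biogenesis, which lie downstream of AMPK through SIRT1 and PPARGC1A, 5 rose and 2 fell (median 0.66). This is 70.0% called, against 25.4% over all genes, in a list chosen with earlier results of these data known. Ppargc1a rose 4.98-fold, its nuclear receptor partner Esrra 3.60-fold, Nampt 2.65-fold and Ppargc1b 2.53-fold (edgeR adjusted p = 0.00335, 0.00195, 0.00285 and 0.00610). The deacetylase Sirt1, singled out after its value was seen, fell 1.53-fold from 50.1 to 32.7 CPM (edgeR adjusted p = 0.0340); it was not read under the alternatives. Ppargc1a had 8.16, 6.44 and 3.83 CPM in f/f and 29.9 and 31.1 CPM in FKO, far apart. The calls of Ppargc1a, Esrra and Nampt held under all 15 alternatives, and that of Ppargc1b ended without FKO replicate 2 (0.0537).

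**Figure D5:**
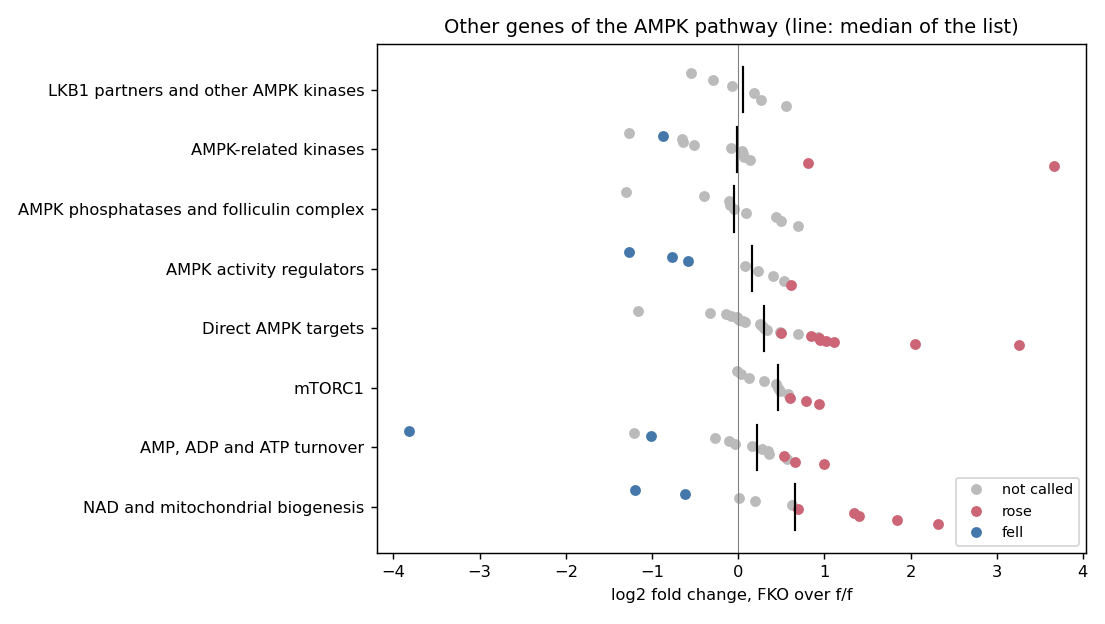
Log2 fold change of FKO over f/f (horizontal axis) for each tested gene of 8 pathway lists; points are coloured by the edgeR call at an adjusted p of 0.05, and black lines are list medians. The medians run from -0.05 for the phosphatases and folliculin complex to 0.66 for NAD and mitochondrial biogenesis. By edgeR 30.8% of the substrate genes rose and 0 fell, against 11.9% higher and 13.4% lower over all genes. The lists were chosen with earlier results of these data known and were not tested as a whole.

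The genes whose levels over the 5 libraries lay nearest to those of Prkaa2 were Acss2, an acetyl-CoA synthetase, Tmem254a and Slc20a2, a phosphate transporter, with a root mean square distance between centred log2 CPM profiles of 0.167, 0.172 and 0.182 among 11891 genes compared. For Prkaa1 they were Dtx3l, a ubiquitin ligase, Dusp4, a MAP kinase phosphatase, and Gfm1, a mitochondrial elongation factor, at 0.0563, 0.0585 and 0.0708. Acss2, for example, was at 218, 174 and 102.2 CPM in f/f and at 480 and 474 CPM in FKO, with the same lowest library, f/f replicate 3, as Prkaa2. This likeness is a description of 5 libraries.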

How the data were processed

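Poly-A selected RNA from 5 adipocyte samples was sequenced on a HiSeq4000 after TruSeq mRNA library preparation, per the labels' protocols. Groups and replicate numbers came from the sample titles, and table columns were matched through the sample descriptions. The submitters' processing notes name HISAT2 2.1.0, HISAT, Bowtie2, StringTie 1.3.4d and the build mm10 without giving their roles. Per the file headers, the authors deposited 1 estimated count, a whole number, for each RefSeq transcript and sample, and an FPKM value, which is relative to transcript length and depth. Per the file headers, transcript lengths in bases are given beside them. One row of 36780, with empty cells, was left out, and 0 columns of sample values were unused.

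Counts and FPKM were summed per gene identifier. Differential expression was tested with edgeR 4.0.16 in R 4.3.3 (quasi-likelihood, TMM, filterByExpr, all 5 samples, genotype as the sole term). Standard errors were derived from the fold change and its F statistic. CPM is scaled by TMM. Transcript use was tested with diffSpliceDGE, and ratios between paralogs with an exact permutation test. Alternatives were other scalings, filters, a replicate block, limma 3.58.1 (voom, and log2 of FPKM plus 0.1 or 1), DESeq2 1.42.0 and each sample left out. The edgeR scripts were tested on simulated data. Named genes are the 9 members, Prmt1, up to 4 genes per pathway list with the smallest p, and the 3 genes nearest in profile to each alpha gene (mean of at least 1 CPM, log2 of CPM plus 0.5). One gene that this rule names is not reported here. The members and lists were chosen with earlier results of these data known. Promoter sequences are from RefSeq (GRCm38.p6), where all 9 members matched, and exon overlaps are from GENCODE.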

Additional observations from a re-analysis of the deposited data

How the results depend on the processing

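The sign of the log2 fold change of all 9 members was the same in all 15 alternatives, and without FKO replicate 1 the members called were 1 higher and 1 lower, without FKO replicate 2 they were 0 higher and 1 lower. Over all genes, 3674 were called, and 909 to 3449 with 1 library left out, the lowest without FKO replicate 1 and the next lowest, 1022, without FKO replicate 2; these settings leave 1 FKO library, which is assumed to vary like f/f. Of the genes called, 47.1% were higher in FKO, but 35.0% under upper-quartile scaling, 26.1% with library size alone, 26.9% for FPKM plus 0.1 and 28.8% for FPKM plus 1, where the median over all genes was -0.17, -0.27, -0.24 and -0.15 in place of -0.05 on the log2 scale. Genes called for transcript use numbered 227, and 236 to 266 with 1 library left out, 85 with the stricter filter and 6 with the replicate number as a block; the cause was not tested. The numbers in the titles are shared by 2 pairs only and nothing in the labels says that they pair animals. The deviations from the group means correlated at 0.089 for number 1 and -0.12 for number 2. Unmatched numbers gave 0.12 for f/f replicate 2 with FKO replicate 1 and 0.19 for f/f replicate 3 with FKO replicate 2. The deviations of the 2 FKO libraries are exact opposites, so these correlations cannot decide whether the numbers pair. The block left 3278 genes called and the same 5 members called, 2 higher and 3 lower. With 1 library left out the difference in log2 ratio was 0.67 to 1.01 for Prkaa2 over Prkaa1, -0.55 to -0.26 for Prkab2 over Prkab1, -0.86 to -0.71 for Prkag2 over Prkag1 and -3.30 to -2.58 for Prkag3 over Prkag1; within replicate numbers 1 and 2 alone these were 0.67, -0.55, -0.77 and -2.80. Map3k7 changed sign with unadjusted library sizes (-0.039) and in both FPKM fits (-0.028 and -0.027); the median over all genes is lower in these fits. Depth does not limit the members at the gene level, each of which had at least 95 counts in every library. Stk11 variant 2, with 2 counts in 2 of the f/f libraries and 10 to 25 in the other 3 libraries, is below the floor of 3 counts in those 2 alone. Camkk2 variant 1 is also below this floor, with 1 count in f/f replicate 1 and 0 in FKO replicate 1.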
